A study of Caenorhabditis elegans with 4 samples.

Results

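The histone genes of *C. elegans* were represented on the arrays by 51 probe sets, out of 22548 that are not array controls. A probe set was taken when every gene that the platform annotation names for it is a *his* gene, and 1 probe set that names a *his* gene together with other genes was left out. The 51 probe sets name 72 genes, which are all 72 *his* genes of the RefSeq annotation. Because histone genes of a class are nearly identical in sequence, 28 probe sets name 1 gene and 23 name several, up to 14. A signal shared by several genes cannot be assigned to a single gene. A probe set that names 1 gene may still hold probes able to hybridize to other transcripts. The probe sets fall into the linker histone H1 (2), H2A (9), H2B (10), H3 (11), the replacement histone H3.3 with other H3-like genes (7), and H4 (12).

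Histones package DNA. The core histones H2A, H2B, H3 and H4 form the nucleosome, and H1 binds the DNA between nucleosomes. Most core histone genes of *C. elegans* lie in clusters with a member of each class, and in animals such genes are transcribed in S phase, when new DNA has to be packaged, into mRNAs that typically end in a stem-loop and not in a poly(A) tail. Replacement histones such as H3.3 come from separate genes and are deposited outside replication as well. In the early embryo, cells divide in rapid succession and depend on a large supply of histones, whereas division slows as the late embryo differentiates.

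The study hybridized embryo RNA to 4 Affymetrix *C. elegans* genome arrays and compared *daf-19(-)* with *daf-19(+)* animals to find genes that depend on DAF-19, the RFX transcription factor of ciliated neurons. By the deposited labels, the 2 arrays named *daf-19(-)* are of *daf-19(m86);daf-12(sa204)* animals and the 2 named *daf-19(+)* are of *daf-12(sa204)* animals. All animals thus carried the *daf-12* allele, which suppresses the constitutive dauer formation of *daf-19(m86)*. The RNA came from whole embryos of mixed stage, released with hypochlorite from gravid adults grown on solid media, so the signal is an average over all cells and stages, and fewer cells of a type cannot be told apart from less RNA per cell. The samples carry replicate numbers 1 and 2 in each group, and nothing states that they came from separate cultures. Values are signals on a linear intensity scale, scaled by the authors to the same target on every chip, with a 2% trimmed mean of 500.1 on each array.

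The naming of the arrays is not settled. Additional data file 3 of the study heads the same arrays with the genotypes exchanged in 1998 of 1998 rows used here, with the same replicate numbers, and 0 of these rows are histone probe sets. Of *daf-19* itself, one probe set had signals of 2493.4 and 2365.2 on the arrays labelled *daf-19(-)*, against 767.5 and 856.8 on those labelled *daf-19(+)*. Its other probe set had 1456.2 and 1231.2 on the arrays labelled *daf-19(-)*, against 440.2 and 460.2 on those labelled *daf-19(+)*. The mutated gene was thus higher on the arrays labelled mutant. Every value below is for the arrays as the deposited labels name them, with *daf-19(-)* over or minus *daf-19(+)*, and each direction turns round if the other naming is right.

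Of the 51 histone probe sets, 47 reached a signal of 80 on 2 arrays or more and were tested among 13096 probe sets, and 4 were too dim. No histone probe set passed the threshold: 0 of 47 were higher and 0 were lower by limma with Benjamini-Hochberg adjusted p under 0.05, where 0.359% of all tested probe sets were higher and 0.084% lower. The adjusted p-values ran from 0.110 to 0.988. At an unadjusted p under 0.05, 9 were lower and 0 higher, where all tested probe sets gave 7.06% lower and 11.2% higher. The log2 fold change, computed on log2(signal + 16), was below 0 for 41 of 47, against 44.2% of all tested probe sets. Its median was -0.37 over the histone probe sets, with a range of -0.89 to 0.40, and 0.06 over all tested probe sets.

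**Figure D1:**
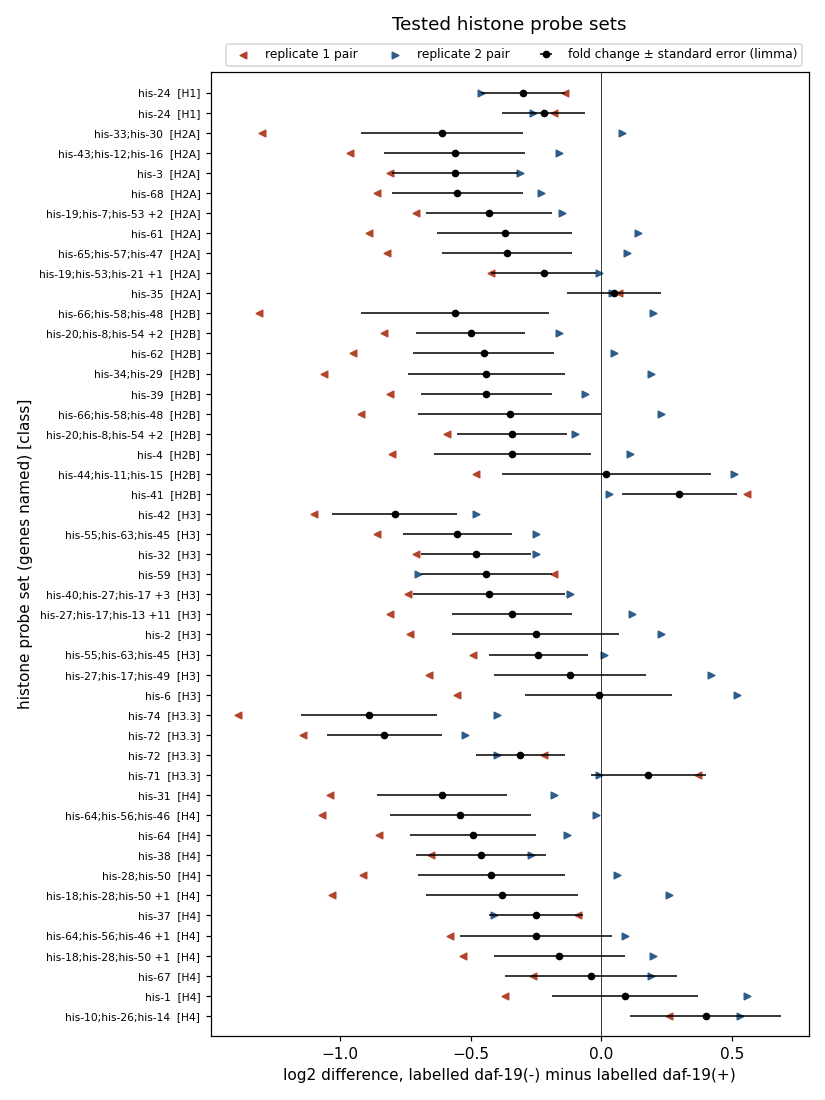
Log2 difference of the arrays labelled daf-19(-) minus those labelled daf-19(+) for the 47 tested histone probe sets, grouped by class and named by the genes each one matches. Black points are limma log2 fold changes with standard errors, and triangles are the differences within the replicate 1 pair and the replicate 2 pair. In 43 of 47 probe sets the replicate 1 difference lies below 0, and in 24 of 47 the replicate 2 difference does.

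Arrays were paired by replicate number, which is an assumption. Differences between replicates 1 and 2 correlated between the labels at only 0.12 over all tested probe sets and 0.18 over the histone probe sets. The 2 replicate pairs gave different answers. Within the replicate 1 pair the difference was below 0 for 43 of 47 histone probe sets, with a median of -0.74 and a range of -1.39 to 0.56. Within the replicate 2 pair it was below 0 for 24 of 47, with a median of -0.01 and a range of -0.70 to 0.56. The medians of all tested probe sets were 0.09 in replicate 1 and 0.03 in replicate 2. In both pairs together, 23 of 47 histone probe sets were lower on the *daf-19(-)* array, against 28.6% of all tested probe sets. All arrays of the groups stood apart, with *daf-19(-)* below *daf-19(+)*, in 18 of 47 (21.6% of all tested probe sets), and with *daf-19(-)* above it in 1 of 47 (29.7%).

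The high signals lay on a single array. The *daf-19(+)* replicate 1 array held the highest of the 4 signals for 42 of 47 histone probe sets, where it did so for 27.5% of all tested probe sets. *daf-19(-)* replicate 1 was highest in 0 of them, *daf-19(-)* replicate 2 in 3 and *daf-19(+)* replicate 2 in 2. For 26 of 47 the *daf-19(+)* replicate 1 signal was at least 1.5 times that of each other array, against 3.25% of all tested probe sets. Replicate 1 over replicate 2 had a median ratio of 1.07 within *daf-19(-)*, with a range of 0.764 to 1.88, and of 1.68 within *daf-19(+)*, with a range of 0.609 to 3.21. By these medians the *daf-19(-)* replicates were close to each other and the *daf-19(+)* replicates were not.

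Which array is left out decided the result. Without *daf-19(+)* replicate 1, the median log2 fold change over the 47 was -0.02, 25 of 47 were below 0, and 0 passed in either direction. Without *daf-19(+)* replicate 2, the median was -0.80 and 27 of 47 were lower by limma with adjusted p under 0.05, where 4.69% of all tested probe sets were lower, and 1 was higher, where 7.41% were. In such a fit the lone *daf-19(+)* array is assumed to vary like the *daf-19(-)* arrays. Blocking on the replicate number, limma called 3 lower (3.01% of all tested probe sets) and 0 higher (4.37%). These 3 were *his-72*, *his-74* and *his-42*. The median was -0.42 without *daf-19(-)* replicate 1 and -0.33 without *daf-19(-)* replicate 2.

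**Figure D2:**
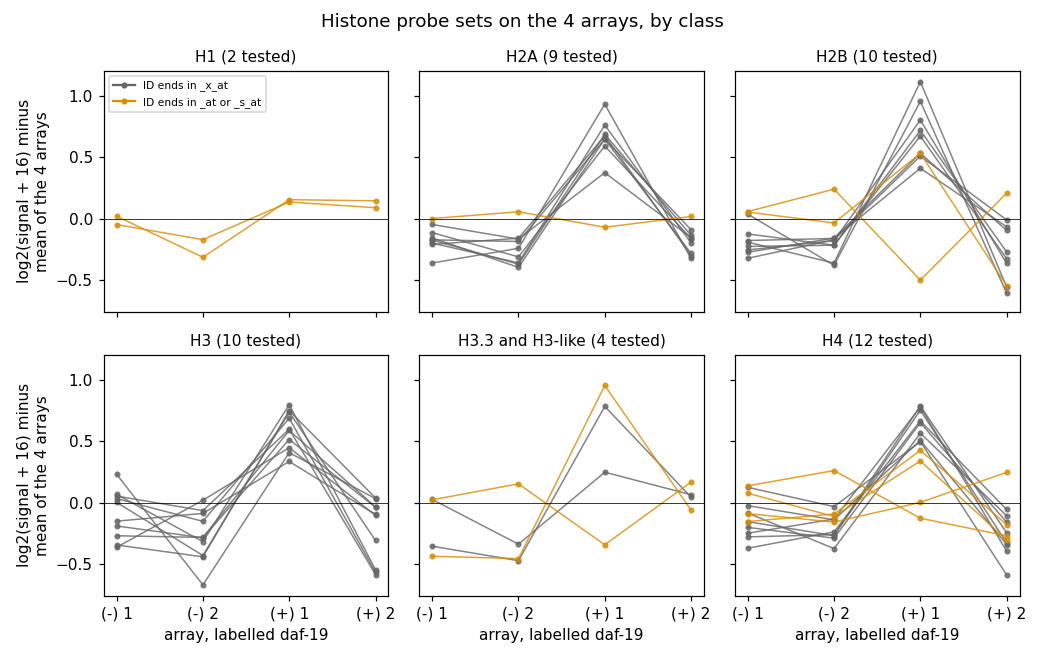
Signals of the 47 tested histone probe sets on the 4 arrays, as log2(signal + 16) minus the mean of the 4 arrays, with 1 line for each probe set and 1 panel for each class. Grey lines are probe sets with IDs ending in _x_at and orange lines the others. In the H2A, H2B, H3 and H4 panels every grey line peaks on daf-19(+) replicate 1.

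The core histone classes had similar medians. The H2A probe sets had a median log2 fold change of -0.43 (8 of 9 below 0), which was -0.82 in the replicate 1 pair and -0.01 in the replicate 2 pair. H2B had -0.39 (8 of 10 below 0), with -0.82 in the replicate 1 pair and 0.08 in the replicate 2 pair. In both classes, whose proteins pair with each other in the nucleosome, the deviation lay in replicate 1. H3 had -0.39 (10 of 10 below 0), with -0.72 in the replicate 1 pair and -0.06 in the replicate 2 pair. H4 had -0.32 (10 of 12 below 0), with -0.62 in the replicate 1 pair and 0.08 in the replicate 2 pair. The replicate 2 pair was again near 0 in both. The *daf-19(+)* arrays differed by a median of 1.78 times in H2A, 2.02 in H2B, 1.59 in H3 and 1.71 in H4, replicate 1 over replicate 2.

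Among H2A genes, the probe set for *his-65*, *his-57* and *his-47* had signals of 2701.5 and 2676.6 on the *daf-19(-)* arrays and 4784.3 and 2500.1 on the *daf-19(+)* arrays. Only *daf-19(+)* replicate 1 stood above the other arrays, so that the groups overlapped, and the log2 fold change was -0.36 ± 0.25 (SE; limma adjusted p = 0.440). The probe set for *his-33* and *his-30* had 1018.3 and 1107.5 on the *daf-19(-)* arrays and 2522.5 and 1044.9 on the *daf-19(+)* arrays. Its log2 fold change was -0.61 ± 0.31 (SE; limma adjusted p = 0.308), and it was 0.02 without *daf-19(+)* replicate 1.

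Among H2B genes, the widest gap between the *daf-19(+)* arrays lay in a probe set for *his-66*, *his-58* and *his-48*, with 2236.3 and 1984.7 on the *daf-19(-)* arrays and 5564.5 and 1731.7 on the *daf-19(+)* arrays. The *daf-19(-)* values lay between those of the *daf-19(+)* replicates, which differed by 3.21 times. The log2 fold change was -0.56 ± 0.36 (SE; limma adjusted p = 0.421) with all arrays and 0.28 without *daf-19(+)* replicate 1. A second probe set for the same genes had 2693.2 and 2012.5 on the *daf-19(-)* arrays and 5110.5 and 1716.3 on the *daf-19(+)* arrays. It showed the same order, with *daf-19(+)* holding both the highest and the lowest signal.

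Among H3 genes, the probe set for *his-27*, *his-17* and *his-49* had 5560.4 and 4888.3 on the *daf-19(-)* arrays and 8772.9 and 3660.2 on the *daf-19(+)* arrays, with a log2 fold change of -0.12 ± 0.29 (SE; limma adjusted p = 0.857) and of 0.51 without *daf-19(+)* replicate 1. The groups overlapped, with the *daf-19(-)* arrays in the middle. *his-42*, an H3 gene whose gene ID in the platform annotation was not matched in RefSeq, did not overlap, with 1082.7 and 1011.4 on the *daf-19(-)* arrays and 2332.8 and 1417.2 on the *daf-19(+)* arrays. Its log2 fold change was -0.79 ± 0.24 (SE; limma adjusted p = 0.138), and -0.43 without *daf-19(+)* replicate 1. It fell with the replicate block (limma adjusted p = 0.00742). The probe set for *his-59* had the smallest gap between the *daf-19(+)* arrays among the core probe sets with IDs ending in _x_at, with 3151.3 and 1677.7 on the *daf-19(-)* arrays and 3562.8 and 2743.1 on the *daf-19(+)* arrays.

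Among H4 genes, *his-31* had 555.4 and 610.9 on the *daf-19(-)* arrays and 1158.3 and 695.6 on the *daf-19(+)* arrays. The groups did not overlap, although *daf-19(+)* replicate 2 was much nearer to the *daf-19(-)* arrays than to its own replicate, and the log2 fold change was -0.61 ± 0.25 (SE; limma adjusted p = 0.233). The probe set for *his-10*, *his-26* and *his-14* was the only one with both *daf-19(-)* arrays above both *daf-19(+)* arrays, at 247.9 and 271.7 on the *daf-19(-)* arrays and 203.7 and 182.9 on the *daf-19(+)* arrays. It did not pass the test, with a log2 fold change of 0.40 and limma adjusted p = 0.471. Both this probe set and *his-59* were named after their values were seen. The other single-gene H4 probe sets included *his-64*, with 1348.9 and 1268.2 on the *daf-19(-)* arrays and 2451.1 and 1389.3 on the *daf-19(+)* arrays, and *his-38*, with 856.0 and 696.9 on the *daf-19(-)* arrays and 1352.9 and 842.7 on the *daf-19(+)* arrays.

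The histone probe sets are mostly of one technical kind. Affymetrix marks with _x_at the probe sets that hold probes able to hybridize to other transcripts, and 36 of the 47 tested histone probe sets are of this kind. *daf-19(+)* replicate 1 was highest in 36 of 36 of them, where it was highest in 26.3% of all 749 tested _x_at probe sets, and it was at least 1.5 times each other array in 25 of 36, against 5.87% of the 749. Among the 11 other tested histone probe sets it was highest in 6 and at least 1.5 times each other array in 1, that of *his-74*. The median log2 fold change was -0.43 over the 36 and -0.04 over the 11. Of the 41 tested core probe sets, 34 were _x_at, with a median log2 fold change of -0.43, and the 7 others had a median of 0.02. These 7 were those of *his-35*, *his-41* and *his-37* and dim ones, with signals of 90.9 to 398.4. The kinds thus differ in genes and in signal as well. The difference between the kinds was not tested.

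The genes were also grouped by position. Taking *his* genes at most 20 kb apart in RefSeq as neighbours, the 72 genes form 18 groups, and 9 groups with all 4 core classes hold 58 of the genes. Of the 34 tested probe sets that name only genes of these 9 groups, *daf-19(+)* replicate 1 was highest in 33 and at least 1.5 times each other array in 21. Of the 13 other tested probe sets it was highest in 9 and at least 1.5 times each other array in 5. The 3 probe sets within the 9 groups that are not _x_at included 2 in which *daf-19(+)* replicate 1 was highest. In 0 of them did it reach 1.5 times each other array. All 3 were dim, with signals of 90.9 to 398.4. The other 31 within the groups were _x_at, with *daf-19(+)* replicate 1 highest in 31 and at least 1.5 times each other array in 21. Over all 36 tested _x_at histone probe sets, in or out of the groups, these counts were 36 and 25. Position and probe set kind thus largely coincide, and their parts cannot be told apart here.

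Several genes of these groups, or pairs of them, have probe sets that name no other gene, and 3 groups are given as examples. All probe sets of these 3 examples have IDs ending in _x_at. Their signals may therefore include other transcripts, and a value given for a gene is that of its probe set. The neighbours *his-1* (H4), *his-2* (H3), *his-3* (H2A) and *his-4* (H2B) each have a probe set for 1 gene. *his-1* had 1467.5 and 1314.4 on the *daf-19(-)* arrays and 1906.0 and 887.9 on the *daf-19(+)* arrays, and *his-2* had 2190.0 and 1672.0 on the *daf-19(-)* arrays and 3649.1 and 1423.3 on the *daf-19(+)* arrays. *his-4* had 452.8 and 423.9 on the *daf-19(-)* arrays and 799.4 and 391.4 on the *daf-19(+)* arrays. In these 3 genes the *daf-19(+)* arrays held both the highest and the lowest signal. *his-3* had 1221.3 and 1031.0 on the *daf-19(-)* arrays and 2149.5 and 1279.4 on the *daf-19(+)* arrays, without overlap. The log2 fold changes were 0.09 for *his-1*, -0.25 for *his-2*, -0.56 for *his-3* and -0.34 for *his-4*, with limma adjusted p from 0.248 to 0.891.

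A second group holds *his-59* (H3), *his-61* (H2A) and *his-62* (H2B), each with a probe set for 1 gene. *his-61* had 1374.7 and 1423.9 on the *daf-19(-)* arrays and 2554.7 and 1289.3 on the *daf-19(+)* arrays. *his-62* had 1042.9 and 1050.0 on the *daf-19(-)* arrays and 2023.6 and 1010.5 on the *daf-19(+)* arrays. *daf-19(+)* replicate 1 stood alone above the other arrays in both, whereas for *his-59* *daf-19(-)* replicate 1 was high as well, 1.88 times *daf-19(-)* replicate 2. The third group holds *his-29* to *his-34*, in which the H3 gene *his-32* had 1659.3 and 1551.4 on the *daf-19(-)* arrays and 2715.6 and 1846.5 on the *daf-19(+)* arrays and the H2B genes *his-34* and *his-29*, read together, had 826.9 and 872.2 on the *daf-19(-)* arrays and 1741.4 and 765.2 on the *daf-19(+)* arrays. The 4 probe sets of this group had a median log2 fold change of -0.54, with -1.05 in the replicate 1 pair and -0.05 in the replicate 2 pair.

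*his-35* (H2A), *his-41* (H2B) and *his-37* (H4) neighbour each other in a group of their own that lacks an H3 gene, and each has a probe set for it alone. *his-35* had 2253.9 and 2342.4 on the *daf-19(-)* arrays and 2144.6 and 2280.0 on the *daf-19(+)* arrays, with a log2 fold change of 0.05 ± 0.18 (SE; limma adjusted p = 0.899). The 4 arrays were nearly level and overlapped. *his-41* had 3005.4 and 3413.4 on the *daf-19(-)* arrays and 2033.9 and 3337.1 on the *daf-19(+)* arrays, with a log2 fold change of 0.30 ± 0.22 (SE; limma adjusted p = 0.489). Here *daf-19(+)* replicate 1 was the lowest array and the other 3 were alike, and *his-41* was the 1 histone probe set that passed as higher when *daf-19(+)* replicate 2 was left out (0.65). *his-37* had 2623.6 and 2501.0 on the *daf-19(-)* arrays and 2796.4 and 3317.1 on the *daf-19(+)* arrays, with a log2 fold change of -0.25 ± 0.18 (SE; limma adjusted p = 0.472). In 0 of these 3 genes was *daf-19(+)* replicate 1 the highest array. All 3 probe sets have IDs ending in _at alone. Of the 6 tested histone probe sets of that kind, *daf-19(+)* replicate 1 was highest in 3, against 36 of 36 with IDs ending in _x_at. Group and probe set kind thus cannot be told apart for these 3 genes.

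**Figure D3:**
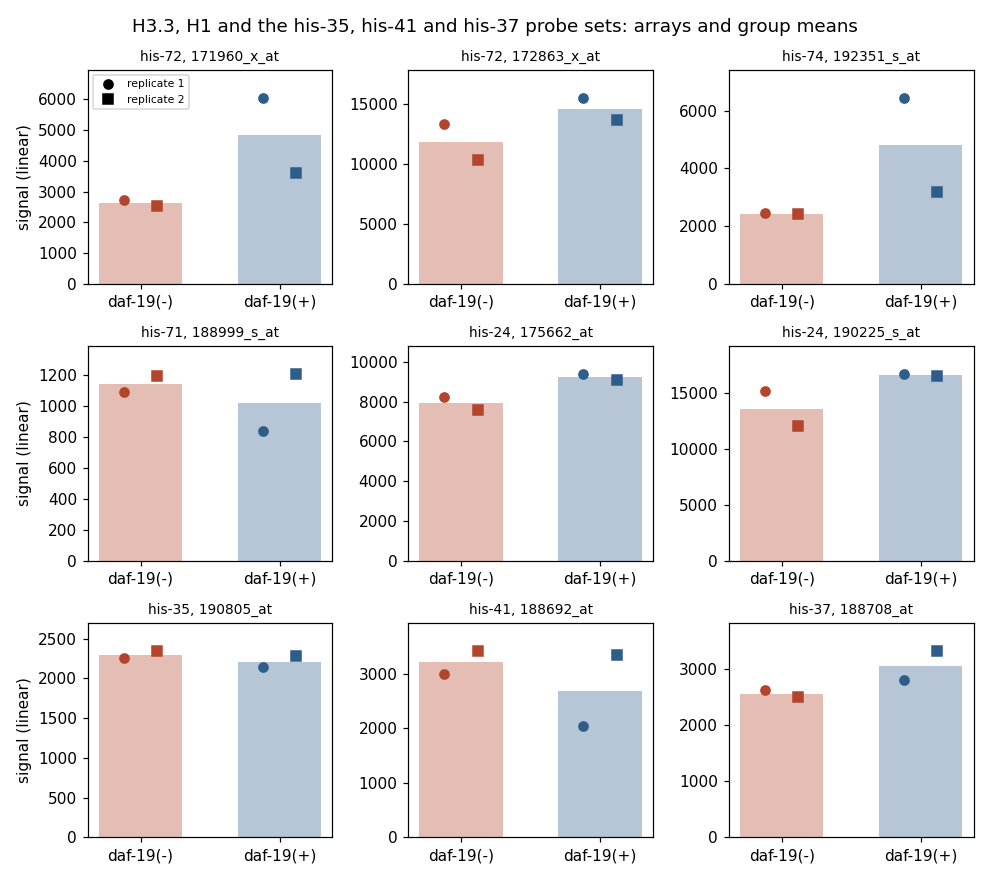
Linear signals of H3.3 and H1 probe sets and of his-35, his-41 and his-37, with bars for the mean of 2 arrays labelled daf-19(-) (red) and 2 labelled daf-19(+) (blue), circles for replicate 1 and squares for replicate 2. Both daf-19(-) arrays lie below both daf-19(+) arrays for his-72, his-74, his-24 and his-37, and the arrays overlap for his-71, his-35 and his-41.

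The replacement histone genes differed from one another. *his-72* and *his-71* encode H3.3, and *his-69*, *his-70*, *his-73* and *his-74* encode further H3 variants or H3-like proteins. One *his-72* probe set had 2738.0 and 2521.1 on the *daf-19(-)* arrays and 6055.4 and 3617.5 on the *daf-19(+)* arrays, with a log2 fold change of -0.83 ± 0.22 (SE; limma adjusted p = 0.110). The other had 13294.2 and 10315.7 on the *daf-19(-)* arrays and 15503.6 and 13649.1 on the *daf-19(+)* arrays, with a log2 fold change of -0.31 ± 0.17 (SE; limma adjusted p = 0.328). Both were lower on the *daf-19(-)* array in each replicate pair and neither overlapped between groups, but the sizes of the difference were unlike. *his-74* had 2444.4 and 2412.6 on the *daf-19(-)* arrays and 6448.0 and 3177.5 on the *daf-19(+)* arrays, the furthest from 0 of the log2 fold changes at -0.89 ± 0.26 (SE; limma adjusted p = 0.128). With the replicate block *his-74* fell (limma adjusted p = 3.05e-04), as did the first *his-72* probe set (limma adjusted p = 0.00102), and without *daf-19(+)* replicate 1 the differences were -0.39 for *his-74* and -0.46 for that *his-72* probe set.

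*his-71* did not follow them. It had 1088.5 and 1192.9 on the *daf-19(-)* arrays and 840.4 and 1205.2 on the *daf-19(+)* arrays, where *daf-19(+)* replicate 1 was the lowest of 4 and the groups overlapped. The log2 fold change was 0.18 ± 0.22 (SE; limma adjusted p = 0.696) and -0.08 without *daf-19(+)* replicate 1. The other 3 genes of this kind with a probe set for 1 gene were too dim to test. *his-70* had 1.5 and 41.3 on the *daf-19(-)* arrays and 2.5 and 12.1 on the *daf-19(+)* arrays, *his-69* stayed between 3.6 and 9.8 on all arrays, and *his-73* between 28.3 and 59.8. A probe set for the H3 gene *his-17* and the H3-like gene *his-40* was the fourth that was not tested, with 11.4 and 3.4 on the *daf-19(-)* arrays and 52.5 and 53.7 on the *daf-19(+)* arrays. All 4 of its values lay under the floor of 80, where signals have no dependable order.

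The linker histone H1 had nearly the same signal on both *daf-19(+)* arrays. *his-24*, the only H1 gene that carries a *his* name, had 8244.5 and 7571.1 on the *daf-19(-)* arrays and 9371.6 and 9072.0 on the *daf-19(+)* arrays with one probe set, a log2 fold change of -0.22 ± 0.16 (SE; limma adjusted p = 0.453). The other probe set had 15127.9 and 11989.1 on the *daf-19(-)* arrays and 16614.1 and 16506.6 on the *daf-19(+)* arrays, a log2 fold change of -0.30 ± 0.16 (SE; limma adjusted p = 0.328). Both *daf-19(-)* arrays lay below both *daf-19(+)* arrays with either probe set. The *daf-19(+)* arrays differed by 1.03 and 1.01 times, and without *daf-19(+)* replicate 1 the median of both probe sets was -0.25, against -0.26 with all arrays. Without *daf-19(-)* replicate 2 that median was -0.15, and the second probe set had -0.13.

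Probe sets that name the same genes can be set side by side, and 6 sets of genes had 2 tested probe sets each. All pairs except that of *his-24* consist of probe sets with IDs ending in _x_at. These may read other transcripts as well, so they need not be repeat measurements of the same RNA. All 12 log2 fold changes were below 0. The closest pair was *his-24*, at -0.22 and -0.30, and the widest was *his-72*, at -0.83 and -0.31. For *his-55*, *his-63* and *his-45* (H3) the pair gave -0.55 and -0.24, and for *his-18*, *his-28*, *his-50* and *his-5* (H4) it gave -0.16 and -0.38. The gap within *his-72* was wider than the range of the 6 class medians, -0.57 to -0.26.

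Of 10 histone genes whose names do not begin with *his*, 9 were tested. By limma 0 were higher and 0 lower, where 0.359% of all tested probe sets were higher and 0.084% lower. The log2 fold change was below 0 in 7 of the 9, against 44.2% of all tested probe sets. Its median was -0.26, and -0.10 without *daf-19(+)* replicate 1. *htz-1*, which encodes H2A.Z, had 11297.3 and 9500.5 on the *daf-19(-)* arrays and 14093.3 and 11131.1 on the *daf-19(+)* arrays. *cpar-1*, a relative of the centromeric H3 gene *hcp-3*, had 166.8 and 111.2 on the *daf-19(-)* arrays and 252.8 and 145.7 on the *daf-19(+)* arrays, with a log2 fold change of -0.45 (limma adjusted p = 0.523) and of -0.08 without *daf-19(+)* replicate 1. The H1-like gene *hil-6* had 382.9 and 448.0 on the *daf-19(-)* arrays and 512.8 and 590.7 on the *daf-19(+)* arrays, with a log2 fold change of -0.40 (limma adjusted p = 0.385). *daf-19(+)* replicate 1 was highest in 5 of these 9 genes, and *hil-6* was not among them.

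Histone chaperones carry histones to DNA, and the stem-loop binding protein CDL-1 handles histone mRNA. Of 12 tested genes of this kind, 0 were higher and 0 lower by limma, where 0.359% of all tested probe sets were higher and 0.084% lower. The log2 fold change was below 0 in 12 of 12, against 44.2% of all tested probe sets, and the median was -0.43. *cdl-1* had 4213.6 and 3170.5 on the *daf-19(-)* arrays and 4908.0 and 4494.3 on the *daf-19(+)* arrays, without overlap (log2 fold change -0.36, limma adjusted p = 0.312). *unc-85*, an ASF1 homologue, had 704.1 and 490.9 on the *daf-19(-)* arrays and 1281.9 and 744.4 on the *daf-19(+)* arrays, a log2 fold change of -0.72 (limma adjusted p = 0.203). *hmg-3*, a subunit of the FACT complex, had 526.1 and 331.2 on the *daf-19(-)* arrays and 663.2 and 657.2 on the *daf-19(+)* arrays, a log2 fold change of -0.64 (limma adjusted p = 0.219). With the replicate block, *unc-85* and *lin-53*, which encodes a chaperone subunit shared by several chromatin complexes, were lower, with limma adjusted p of 0.0334 and 0.0232, 2 of 12 genes where 3.01% of all tested probe sets were lower. Without *daf-19(+)* replicate 1 the log2 fold change was -0.33 for *unc-85*, and -0.25 for *lin-53*, against -0.60 with all arrays.

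Genes of DNA replication gave a like picture. Of 21 tested S phase genes 0 were higher and 0 lower by limma, where 0.359% of all tested probe sets were higher and 0.084% lower. The log2 fold change was below 0 in 21 of 21, against 44.2% of all tested probe sets. The median was -0.40, and -0.33 without *daf-19(+)* replicate 1. The GINS subunit gene *psf-3* had 261.0 and 282.5 on the *daf-19(-)* arrays and 537.7 and 493.1 on the *daf-19(+)* arrays, a log2 fold change of -0.88 (limma adjusted p = 0.125). Another GINS subunit gene, *psf-2*, had 822.9 and 820.4 on the *daf-19(-)* arrays and 1902.1 and 1057.0 on the *daf-19(+)* arrays, a log2 fold change of -0.78 (limma adjusted p = 0.164). With the replicate block 4 of the 21 were lower and 0 higher, where 3.01% of all tested probe sets were lower and 4.37% higher. *daf-19(+)* replicate 1 was highest in 15 of 21, and the chaperone and S phase medians without it (-0.32 and -0.33) were further from 0 than the histone median without it.

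**Figure D4:**
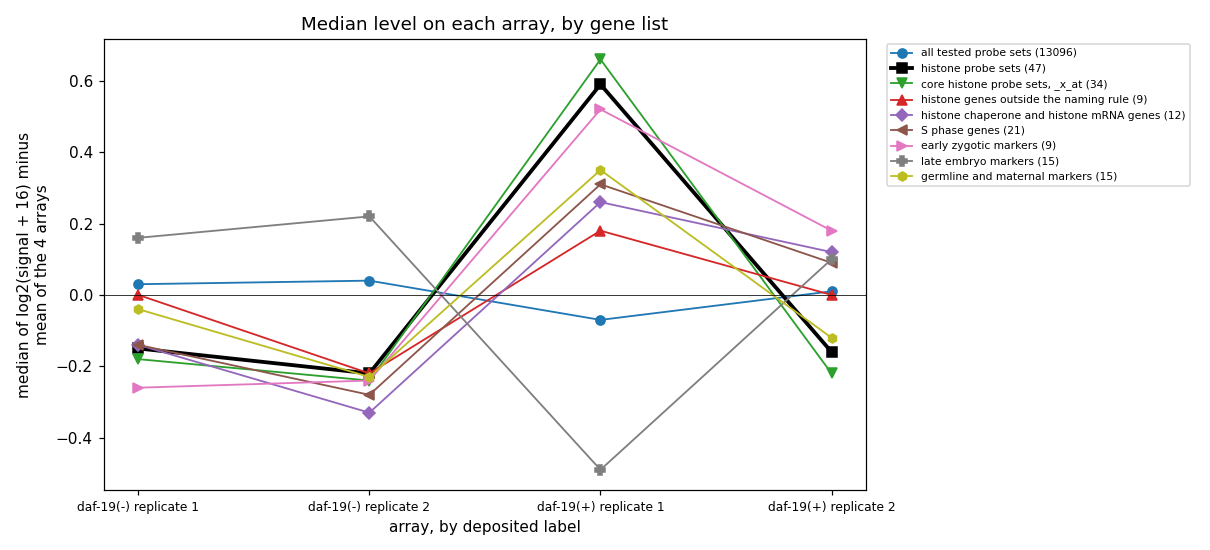
Median of log2(signal + 16) minus the mean of the 4 arrays for the histone probe sets and for related lists, on each array, with the number of tested probe sets or genes in brackets. The histone line is at 0.59 on daf-19(+) replicate 1 and between -0.22 and -0.15 on the other arrays, and late embryo markers are lowest on daf-19(+) replicate 1, at -0.49.

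Markers of embryonic stage also deviated on *daf-19(+)* replicate 1. Of 9 tested early zygotic markers, 8 were highest on *daf-19(+)* replicate 1, where 27.5% of all tested probe sets were. Of 15 late embryo markers 12 were lowest on it, where 40.8% of all tested probe sets were. The medians of early zygotic markers, as deviations from the mean of the 4 arrays on the log2 scale, were -0.26 and -0.24 on the *daf-19(-)* arrays and 0.52 and 0.18 on the *daf-19(+)* arrays. Those of late embryo markers were 0.16 and 0.22 on the *daf-19(-)* arrays and -0.49 and 0.10 on the *daf-19(+)* arrays. On *daf-19(+)* replicate 1 the early zygotic list deviated in the direction of the histones and the late embryo list in the opposite one. The medians of germline and maternal markers were -0.04 and -0.23 on the *daf-19(-)* arrays and 0.35 and -0.12 on the *daf-19(+)* arrays. The histone probe sets had -0.15 and -0.22 on the *daf-19(-)* arrays and 0.59 and -0.16 on the *daf-19(+)* arrays, so that the histone median was high on *daf-19(+)* replicate 1 only. That of germline and maternal markers was likewise above 0 on this array only, which was highest in 13 of the 15 genes. Their median log2 fold change was -0.19 with all arrays and 0.07 without *daf-19(+)* replicate 1, where the histone median was -0.02. The median of early zygotic markers was above 0 on both *daf-19(+)* arrays.

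The values of the marker with the largest absolute log2 fold change in the early zygotic and late embryo lists follow. The early zygotic gene *ceh-51*, a homeobox gene of the mesoderm lineage, had 59.2 and 76.5 on the *daf-19(-)* arrays and 184.9 and 143.0 on the *daf-19(+)* arrays, with both *daf-19(-)* signals under the floor of 80. The late embryo gene *unc-22*, which encodes the muscle protein twitchin, had 397.3 and 424.3 on the *daf-19(-)* arrays and 169.3 and 334.6 on the *daf-19(+)* arrays. Other members differed from these: *sdz-28* was highest on *daf-19(+)* replicate 2, and *unc-119*, a late embryo marker, had 1165.1 and 1382.0 on the *daf-19(-)* arrays and 1447.0 and 1448.7 on the *daf-19(+)* arrays. By limma 0 genes of the 3 stage lists were higher or lower, where 0.359% of all tested probe sets were higher and 0.084% lower. With the replicate block, the early zygotic markers *end-1* and *pes-10* were lower (limma adjusted p of 0.0496 and 0.0179) and the late embryo markers *unc-54* and *dpy-13* were higher (0.0452 and 0.0483), where 3.01% of all tested probe sets were lower and 4.37% higher. Without *daf-19(+)* replicate 1 the median log2 fold change of the early zygotic list was -0.56, as with all arrays, and that of the late embryo list was 0.04, against 0.36 with all arrays, with 0.31 for *unc-54* and -0.09 for *dpy-13*. Summed signals of the early zygotic list were 6358 and 6783 on the *daf-19(-)* arrays and 10119 and 9018 on the *daf-19(+)* arrays, and those of the late embryo list 62369 and 57583 on the *daf-19(-)* arrays and 45570 and 59591 on the *daf-19(+)* arrays. The part of embryonic stage in the histone signals was not tested.

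The labelled material, eggs, was checked against markers of embryos and of the mother. All 15 late embryo and all 15 germline and maternal markers reached the floor for testing, as did 9 of the 12 early zygotic markers on the array. Of 8 sperm markers on the array 2 were tested, with summed signals over the 8 of 523 and 491 on the *daf-19(-)* arrays and 341 and 333 on the *daf-19(+)* arrays. Of 5 yolk protein genes of the adult gut 1, *vit-6*, was tested, and their summed signals were 202 and 161 on the *daf-19(-)* arrays and 132 and 1001 on the *daf-19(+)* arrays. The summed yolk protein signal was thus highest on *daf-19(+)* replicate 2, and 2 of the 5 genes stayed under 80 on all arrays. The part of adult tissue in the histone signals was not tested. Across arrays the median signal was 136 and 144 on the *daf-19(-)* arrays and 106.0 and 127 on the *daf-19(+)* arrays, and 12084 to 13454 probe sets reached 80, with the fewest on *daf-19(+)* replicate 1. The part of these whole-array differences in the histone signals was not tested.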

How the data were processed

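Affymetrix *C. elegans* genome arrays were hybridized by the authors with biotinylated cRNA from 4 embryo samples and processed with GCOS, whose version is not given in the sources used here. The deposited values are GCOS signals, a linear intensity scaled chip by chip by the authors to one target over all probe sets. Standard Affymetrix labelling starts from poly(A) tails, which replication-dependent histone mRNAs largely lack in animals, and its effect on these signals was not tested. Detection calls were not used, and 0 columns of values were left unused. No count or depth exists for arrays, and precision is limited by having 2 arrays a group.

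Samples were grouped by the deposited labels. The 77 control probe sets were left out, and those that reached a signal of 80 on 2 of the 4 arrays or more were tested (13096, with 9452 too dim). A two-sided moderated test was run on log2(signal + 16) with limma 3.58.1 under R 4.3.3, using lmFit and then eBayes with its trend option, on the whole array, with Benjamini-Hochberg adjustment over all tested probe sets and a threshold of 0.05. The offset of 16 understates fold changes of dim probe sets. The spread behind the p-values is that between arrays, which may be technical. Tables were made with Python 3.11.15. The main limma fit was checked on simulated arrays with independent noise, where 6.63% of the calls were false. No simulated array deviated as a whole, and the fits with the replicate block or with an array left out were not simulated.

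Genes were named from the platform annotation. RefSeq (WBcel235) served for current symbols, which 48 of 51 histone probe sets carry for all their IDs, and for neighbouring genes. The rule for the genes named was the probe set of highest mean signal and the tested one of largest absolute log2 fold change in each class, every probe set that names only H3.3 or H3-like genes, *his-24* or *his-35*, any probe set past the threshold, and the 2 genes of largest absolute log2 fold change in each related list. Other genes were named after their values were seen. The histone probe sets, the related lists and the stage markers were chosen with earlier results of these data known.

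The study describes its arrays as a pair of experiments, so the replicate numbers were taken to pair the samples. Differences between replicates 1 and 2 correlated at 0.12 between the labels over 13096 probe sets. With the replicate block, limma estimated an infinite prior, so that p-values of that fit use only the trend of the variance with signal. Alternatives were other filters (no filter, 80 on all 4 arrays, 200 on at least 2 arrays), quantile normalization, offsets of 1 and 64, no variance trend, the replicate block, each array left out, and subsets of the histone probe sets.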

Additional observations from a re-analysis of the deposited data

How the results depend on the processing

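With the replicate block, 3 histone probe sets were lower, against 0 without it, and over all probe sets 394 were lower and 572 higher, against 11 and 47 without it; the block changed no other call among the named histone probe sets. Leaving out each array in turn gave 0 to 27 lower and 0 to 1 higher histone probe sets, a histone median of -0.80 to -0.02, and 4 to 614 lower and 14 to 971 higher over all probe sets. Over all probe sets, 2 were lower and 11 higher with no filter, 24 were higher with a signal of 80 or more on all 4 arrays, 31 were higher with quantile normalization, 20 were lower with an offset of 64, and 2 were lower and 26 higher with no variance trend. The cause of these changes was not tested. Of the 47 tested histone probe sets, 20 changed sign without *daf-19(+)* replicate 1, 2 without *daf-19(+)* replicate 2, 1 without *daf-19(-)* replicate 1 and 3 without *daf-19(-)* replicate 2. Among the 15 tested ones that the naming rule gives, 6 did so, without *daf-19(+)* replicate 1: that of *his-27*, *his-17* and *his-49* (-0.75 to 0.51 over the arrays left out), of *his-65*, *his-57* and *his-47* (-0.83 to 0.10), of *his-33* and *his-30* (-1.24 to 0.02), of *his-66*, *his-58* and *his-48* (-1.39 to 0.28), *his-41* (-0.06 to 0.65) and *his-71* (-0.08 to 0.43). Under the other filters, normalization, offsets and variance settings the histone counts were 0 and the median stayed between -0.38 and -0.36. It was -0.37 over the 25 tested probe sets that name 1 gene, -0.37 with 1 probe set for each gene or gene group (41), and -0.13 over the 6 with IDs ending in _at alone.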
